A study of Mus musculus with 2 samples.

Results

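The regions described here are the promoter peaks of 14 families or clusters of developmental transcription factors in the small intestinal epithelium of 1 mouse: the Hoxa, Hoxb, Hoxc and Hoxd clusters and the Pax, Lhx, Dlx, Irx, Otx, Tbx, Fox, Sox and Nkx families and that of Six4 and Six5. The rule for members used name and position alone, and it was set with earlier results of these data known. A gene belonged when its symbol was one of these family names followed by its number (for Fox, a letter and a number), and a peak of open chromatin belonged when it lay within 1 kb of the interval that the deposited feature table gives for the gene's start or starts. Of 166 such genes, 126 (75.9%) had at least 1 such peak and 40 had none, and the 126 genes gave 315 peaks. Of 21146 other protein-coding genes, 70.4% had a peak within 1 kb, a share close to that of the members. The whole table held 146191 peaks, of which 36206 lay within 1 kb of a gene's start interval and 35891 of those belonged to other genes.

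The mouse was 55 weeks old and bore mutant mitochondrial DNA (mtDNA), altered in the tRNA gene for alanine (TrnA) at a load of 73%. Dissociated epithelial cells were sorted by flow cytometry and profiled for RNA and for open chromatin (ATAC) from the same nuclei, giving 2 libraries over the same 12363 barcodes. The series concerns acute colitis, but the labels do not say whether this animal had it, and no other animal was analysed here. With 1 animal there are no replicates, so cell classes of 1 mouse are set side by side without a test, no value measures the effect of the mutation, and every interval covers counting error only.

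Homeobox, forkhead, T-box and SRY-box genes encode DNA-binding proteins that lay out the body axes and specify tissues in the embryo. In adult tissues many of their promoters, often rich in CpG dinucleotides, are held inactive by Polycomb complexes in cells that do not use them, while a few family members keep working: Foxa factors in gut endoderm and secretory cells, Sox9 in crypts, and Pax6, Pax4 and Nkx2-2 in hormone-producing cells. Hox genes sit in 4 clusters whose gene order follows the order of their use along the body axis.

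Promoter sequences help to picture the regions that the patterns below are about. RefSeq promoter windows (250 bases before to 50 after a start, build GRCm38.p6) were found for 108 of the 166 genes. The printed ones are a promoter open in all classes (Foxk2, chr11:121259737-121260036, plus strand, and Foxa1, chr12:57546062-57546361, minus strand), one whose level differed by class (Sox4, chr13:28953650-28953949, minus strand), one highest in tuft-like cells (Hoxa5, chr6:52204538-52204837, minus strand), one highest in progenitor-like cells (Hoxd4, chr2:74721728-74722027, plus strand), one near the lower limit of detection (Pax1, chr2:147364744-147365043, plus strand) and one that overlapped no peak although its gene's RNA was abundant in 1 class (Nkx2-2, chr2:147186353-147186652, minus strand). Each is written 5′ to 3′ on the gene's strand, with CpG dinucleotides in capitals.
Foxk2: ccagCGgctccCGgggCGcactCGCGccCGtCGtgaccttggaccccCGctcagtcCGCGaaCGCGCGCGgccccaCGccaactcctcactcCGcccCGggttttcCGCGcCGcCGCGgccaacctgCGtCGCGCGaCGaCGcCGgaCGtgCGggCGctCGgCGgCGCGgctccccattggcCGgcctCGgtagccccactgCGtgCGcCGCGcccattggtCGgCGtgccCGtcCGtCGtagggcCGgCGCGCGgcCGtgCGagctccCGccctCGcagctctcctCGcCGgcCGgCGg
Foxa1: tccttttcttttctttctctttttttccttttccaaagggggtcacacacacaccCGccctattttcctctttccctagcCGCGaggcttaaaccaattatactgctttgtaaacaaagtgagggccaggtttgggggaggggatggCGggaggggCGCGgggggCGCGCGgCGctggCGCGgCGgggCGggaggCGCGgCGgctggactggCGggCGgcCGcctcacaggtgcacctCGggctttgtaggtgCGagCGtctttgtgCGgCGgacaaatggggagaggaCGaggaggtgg
Sox4: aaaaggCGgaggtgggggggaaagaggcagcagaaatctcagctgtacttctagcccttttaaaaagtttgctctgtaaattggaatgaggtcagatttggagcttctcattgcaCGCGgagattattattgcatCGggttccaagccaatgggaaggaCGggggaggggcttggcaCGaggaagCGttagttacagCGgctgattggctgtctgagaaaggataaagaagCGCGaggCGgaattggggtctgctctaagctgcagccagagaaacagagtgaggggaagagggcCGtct
Hoxa5: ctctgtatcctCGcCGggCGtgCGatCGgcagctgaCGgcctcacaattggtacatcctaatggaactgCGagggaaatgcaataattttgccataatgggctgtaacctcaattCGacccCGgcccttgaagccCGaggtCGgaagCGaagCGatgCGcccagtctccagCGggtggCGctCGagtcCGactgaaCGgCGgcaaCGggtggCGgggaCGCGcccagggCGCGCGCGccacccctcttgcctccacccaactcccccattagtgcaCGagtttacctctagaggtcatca
Hoxd4: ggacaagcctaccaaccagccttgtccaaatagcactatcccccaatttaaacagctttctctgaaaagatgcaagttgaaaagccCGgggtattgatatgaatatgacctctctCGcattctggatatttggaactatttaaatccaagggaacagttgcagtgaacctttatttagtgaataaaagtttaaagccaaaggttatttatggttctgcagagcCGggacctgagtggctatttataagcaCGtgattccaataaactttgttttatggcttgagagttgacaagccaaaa
Pax1: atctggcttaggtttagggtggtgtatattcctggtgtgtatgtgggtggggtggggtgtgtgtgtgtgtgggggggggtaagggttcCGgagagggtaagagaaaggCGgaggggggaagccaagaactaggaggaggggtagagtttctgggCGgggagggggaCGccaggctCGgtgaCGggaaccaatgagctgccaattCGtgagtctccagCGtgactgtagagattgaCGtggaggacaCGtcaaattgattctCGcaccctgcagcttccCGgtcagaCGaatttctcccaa
Nkx2-2: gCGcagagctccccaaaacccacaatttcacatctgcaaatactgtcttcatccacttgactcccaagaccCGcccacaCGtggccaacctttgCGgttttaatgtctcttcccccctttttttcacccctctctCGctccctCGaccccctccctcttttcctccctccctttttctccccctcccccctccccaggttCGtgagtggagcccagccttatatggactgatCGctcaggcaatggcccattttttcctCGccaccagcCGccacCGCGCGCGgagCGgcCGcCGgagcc

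The Foxk2 window held 59 CpG dinucleotides and was 79.3% G or C. Foxa1 had 26 and 62.3%, Hoxa5 29 and 61.7%, Nkx2-2 17 and 59.7%, Pax1 13 and 57.3%, and Sox4 12 and 52.0%. The Hoxd4 window had 4 CpG dinucleotides and 39.7% G or C, and it was the one of the 7 to hold the letters TATAAA, searched on both strands, which 13.6% of all 32851 RefSeq promoter windows hold. Because fewer than 80% of the member genes had a window, a comparison of base composition or motifs over the whole set is void and none is given.

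Cells were grouped by RNA into 6 named classes. Enterocyte-like cells are the absorptive cells of the villus, crypt progenitor-like cells the stem and dividing cells, goblet-like and Paneth-like cells make mucus and antimicrobial granules, enteroendocrine-like cells make hormones and tuft-like cells are chemosensory. They numbered 2557, 1598, 1534, 257, 190 and 88 cells in that order, with 18560964, 20700290, 20965354, 2497521, 1679709 and 670467 fragments in peaks. A level below is the number of fragments in a peak per 1000000 fragments in all peaks of that class. Member peaks were 339 to 953 bases wide (median 863). Levels are per peak and not per base, so differences of level between peaks include differences of width. Ratios between classes at the same peak do not. Each class had the highest summed RNA of its own marker list: enterocyte markers, for example, made up 36205 UMIs per 1000000 in enterocyte-like cells and 2800 to 7672 in the other classes. Clusters were named from these same lists, so this is no separate check of the names. The 3309 cells (33.5% of kept cells) whose clusters met no naming rule stay out of the comparisons. So do 339 cells of a cluster that scored highest on lymphocyte markers: 315 of them had no UMI of that marker list and 239 fell among crypt progenitor-like cells when clustered by ATAC.

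A smaller share of member promoters than of all promoters was open to a like degree in all 6 classes. A peak was called low when it stayed under 5 fragments per 1000000 in each class, shared when all classes reached 5 and the highest was under 3 times the lowest, restricted when the highest class was at least 3 times the median of the other 5 with 10 or more fragments, and graded otherwise. Of the 315 member peaks, 111 (35.2%) were low, against 31.5% of all promoter peaks. Shared peaks numbered 41 (13.0%), against 33.5%. Graded peaks numbered 130 (41.3%, against 26.9%) and restricted peaks 33 (10.5%, against 8.13%). The median of the mean level over the 6 classes was 3.45 for member peaks and 5.63 for other promoter peaks.

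These shares depend on the length of the start intervals. Because 6 genes (Foxp1, Foxp2, Foxn3, Sox5, Sox6 and Sox13) have several annotated starts spread over more than 30 kb, 142 of the member peaks lay near their start intervals alone, 79 of them near Foxp1. Without those, 173 peaks remained, of which 48 (27.7%) were low, 29 (16.8%) shared, 79 (45.7%) graded and 17 (9.83%) restricted. These 173 are called compact-interval peaks below. The 30 kb cut was chosen after seeing the data and was not applied to other promoter peaks. Shares of compact-interval peaks therefore have no background with the same cut. In addition 53 of the 315 peaks lay within 1 kb of another gene's start too. Just inside the 1 kb edge were peaks of Hoxa3 (985 bases), Dlx3 (939) and Foxd1 (907), with mean levels of 9.76, 3.64 and 9.21. Just outside were peaks of Six5 (1041 bases), Hoxb2 (1061) and Irx5 (1069), with mean levels of 10.1, 2.62 and 39.4.

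**Figure D1:**
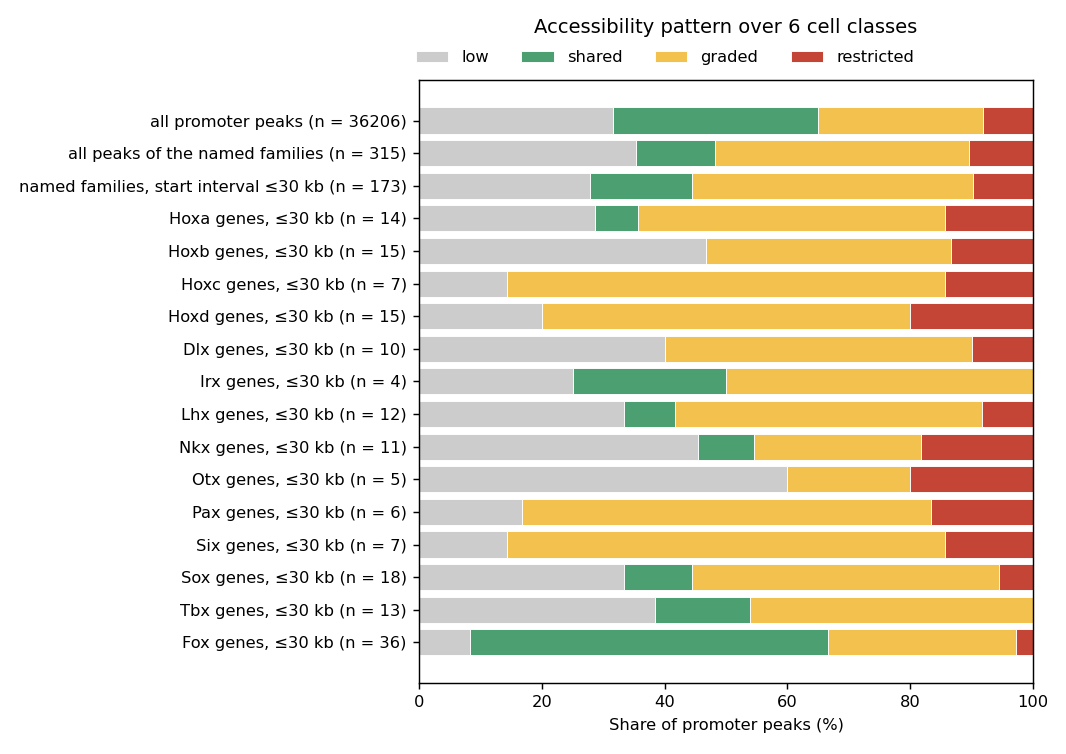
Share of promoter peaks in each accessibility pattern over 6 cell classes (x axis, percent), for all promoter peaks, for all member peaks, for member peaks of genes with start intervals up to 30 kb, and for each family or cluster among the latter, with the number of peaks in brackets. Shared peaks make up 33.5% of all promoter peaks and 58.3% of compact Fox peaks, while Hoxb, Hoxc, Hoxd, Dlx, Otx and Pax genes have none. The 30 kb cut was not applied to all promoter peaks.

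The families differed in how they fell into the patterns. Fox genes supplied 21 of the 29 shared compact-interval peaks, and 3 of the 36 compact Fox peaks were low. Hox genes supplied 1 shared peak of 51, a Hoxa4 peak, with 15 low. No peak of the Dlx, Otx and Pax genes was shared. Tbx (13 peaks) had 2 shared and 5 low, and Nkx (11 peaks) had 1 shared and 5 low.

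Tbx3, a T-box repressor, had the highest member peak (chr5:119670339-119671254, over its start). It held 86.5 fragments per 1000000 in enterocyte-like, 78.4 in progenitor-like, 88.2 in goblet-like, 91.3 in Paneth-like, 97.0 in enteroendocrine-like and 121 in tuft-like cells. The highest class was 1.37 times the median of the other 5, and each class was well above the limit of detection. The other shared peaks with the highest mean levels were all of forkhead genes.

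Foxo3, an effector of insulin and stress signalling, had a mean level of 71.3 at a peak 742 bases from its start, from 66.6 in both enterocyte-like and progenitor-like cells to 78.6 in enteroendocrine-like cells. Foxj3 ranged from 47.5 in progenitor-like to 81.6 in enterocyte-like cells at a peak over its start, which also lies near the start of Frg2f1. Foxn2 ranged from 51.7 in Paneth-like to 64.1 in tuft-like cells. Foxo6 ranged from 49.2 in tuft-like to 61.5 in enterocyte-like cells. Foxa3, a pioneer factor of endoderm, ranged from 46.7 in enterocyte-like to 74.6 in tuft-like cells at the higher of its 2 peaks, which is also near a start of Sympk. None of these 5 peaks differed by as much as 2-fold between any 2 classes.

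Low peaks were not detectable above 5 fragments per 1000000 in any class, which does not show that they are closed. The 4 lowest were peaks inside the long start intervals of Sox5 (mean level 0.356), Sox6 (0.399) and Foxp1 (0.429 and 0.465). Of the compact-interval genes, Hoxb5 had a peak with a mean level of 0.512 beside a higher one, with 13 fragments in enterocyte-like, 22 in progenitor-like and 15 in goblet-like cells and 1 or none in the other classes. Pax1, a factor of the embryonic axial skeleton, had 0.323 in enterocyte-like, 0.628 in progenitor-like, 0.811 in goblet-like, 0.801 in Paneth-like, 1.79 in enteroendocrine-like and 1.49 in tuft-like cells. For scale, a peak with no fragment could have had a level of up to 0.162 in enterocyte-like cells but 4.47 in tuft-like cells, taking 3 fragments as the limit that a count of 0 allows. A low level is therefore best measured in the 3 large classes. The call itself needs all 6 classes under the threshold, and a few fragments in tuft-like cells can lift a peak out of it. Tuft-like cells were the highest class at 111 of the 315 member peaks (35.2%, against 30.3% of all promoter peaks).

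Within each family the gene with the highest promoter peak stood far apart from the family's median peak in several cases. The highest Sox peak was that of Sox12 (mean level 36.6, family median 2.69), which was shared, with 30.9 in progenitor-like and 41.2 in Paneth-like cells as the extremes. Six5 had a peak with a mean level of 18.7, at 3.72 in enterocyte-like and 34.8 in Paneth-like cells. The highest Pax peak was that of Pax6 (22.8, median 4.64) and the highest Otx peak that of Otx1 (15, median 2.86). For Nkx it was Nkx6-1 (13.6), for Lhx Lhx1 (12.4), for Irx Irx3 (10.3) and for Dlx Dlx6 (5.21).

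Enterocyte-like cells had the lowest accessibility at member promoters. Of the 315 peaks, 157 (49.8%) were lowest in enterocyte-like cells, against 37.4% of all promoter peaks, and of the compact-interval peaks 122 of 173 (70.5%) were. The compact-interval peaks together held 1172 fragments per 1000000 in enterocyte-like cells (95% Poisson interval 1156 to 1188). They held 1743 in progenitor-like (1725 to 1761), 1529 in goblet-like (1512 to 1546) and 1647 in Paneth-like cells (1597 to 1698). Enteroendocrine-like cells had 1831 (1767 to 1897) and tuft-like cells 2094 (1986 to 2207). The 3 RNA clusters that make up the enterocyte-like class had 1162, 1172 and 1200, below each cluster of the other named classes, the lowest of which was a goblet-like cluster with 1420.

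Set against enterocyte-like cells, the share of member peaks that were at least 2-fold higher exceeded the share of all promoter peaks in each of the 5 other classes. This call takes peaks with 20 or more fragments over both classes, was chosen after the values had been seen, and is a rule of size with no test. In crypt progenitor-like cells 168 of 310 member peaks (54.2%) were higher, against 26.8% of all promoter peaks, and 23 (7.42%) were lower, against 12.9%. In goblet-like cells 114 of 309 (36.9%) were higher, against 19.3%, and 15 lower, against 8.58%. The goblet-like share depended on the classes: with classes from ATAC clusters 55 of 304 member peaks (18.1%) were higher, against 14.05% of all promoter peaks, and at Leiden resolution 2, 71 of 305 (23.3%), against 14.3%. In Paneth-like cells 107 of 248 (43.1%) were higher, against 20.1%, and 17 lower, against 14.4%.

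The small classes gave the same direction, with wider counting error. In enteroendocrine-like cells 103 of 239 (43.1%) were higher, against 23.8%, and 28 lower, against 16.8%. In tuft-like cells 99 of 222 (44.6%) were higher, against 22.1%, and 41 lower, against 21.3%. Among the compact-interval peaks, 111 of 172 were higher in progenitor-like cells and 2 were lower. The median log2 ratio of member peaks to enterocyte-like cells was 1.12 in progenitor-like, 0.72 in goblet-like, 0.79 in Paneth-like, 0.75 in enteroendocrine-like and 0.72 in tuft-like cells. Other promoter peaks had medians of 0.33, 0.25, 0.20, 0.29 and 0.27.

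Promoters of other genes shifted in the same direction: their peaks held 46.6% of fragments in enterocyte-like cells and 50.4 to 56.7% in the other classes. Scaled to fragments in those promoters, the medians of member peaks were 1.00, 0.61, 0.64, 0.54 and 0.44, and those of other promoter peaks 0.20, 0.13, 0.06, 0.08 and -0.02. Depth differed between classes: the median number of fragments a cell was 5930 in enterocyte-like, 11029 in progenitor-like, 9898 in goblet-like, 5347 in Paneth-like, 6960 in enteroendocrine-like and 5932 in tuft-like cells, and the median of nuclear-encoded UMIs was 951 in enterocyte-like cells and 2057 to 3063 in the other classes. The part of depth in the difference was not tested. The median share of mtDNA-encoded UMIs was 76.2% in enterocyte-like cells and 36.2 to 54.9% in the other classes. Without the cells above 80%, 158, 96, 80, 71 and 73 member peaks were higher in the 5 classes, in the order given above, or 51.3, 31.4, 36.9, 35.0 and 38.6% of those tested, against 24.5, 17.01, 17.4, 20.3 and 18.9% of all promoter peaks.

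**Figure D2:**
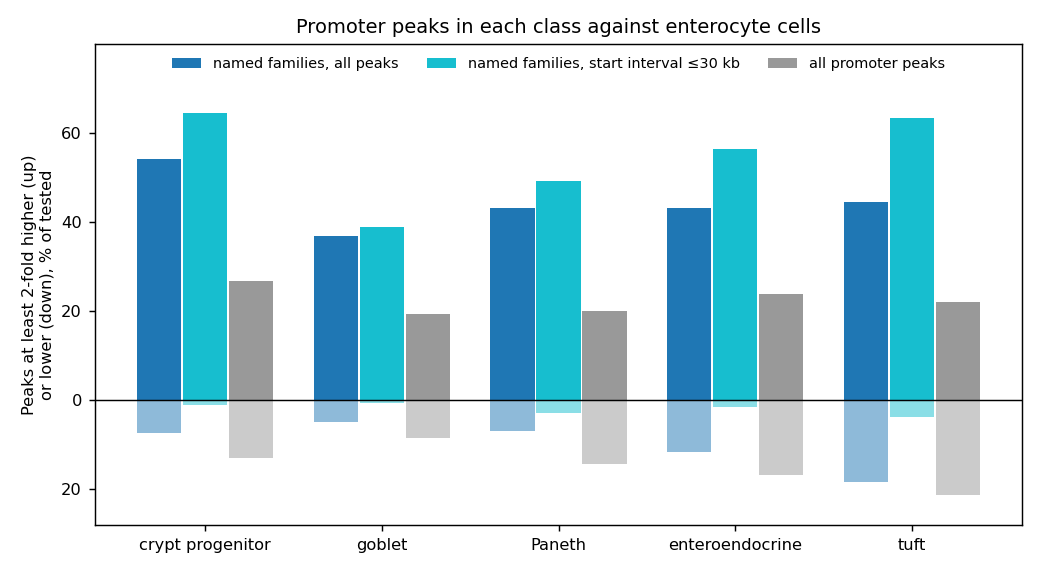
Share of tested promoter peaks (y axis, percent) at least 2-fold higher (upward bars) or at least 2-fold lower (downward bars, paler) in each of 5 classes than in enterocyte-like cells, for all member peaks, for compact-interval member peaks and for all promoter peaks. In progenitor-like cells 54.2% of member peaks were higher, against 26.8% of all promoter peaks. The 30 kb cut of the compact-interval peaks was not applied to all promoter peaks.

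Sox9, a factor of crypt stem cells and Paneth cells, shows the pattern. Its peak over the start (chr11:112781811-112782671) held 4.53 fragments per 1000000 in enterocyte-like, 25.4 in progenitor-like, 14.9 in goblet-like, 21.6 in Paneth-like, 14.9 in enteroendocrine-like and 35.8 in tuft-like cells. Enterocyte-like cells lay below the 5 other classes, and the progenitor-like level was 5.60 times theirs (95% interval 4.44 to 7.14). Sox4, which marks immature cells, had 9.48 in enterocyte-like, 38.4 in progenitor-like, 19.4 in goblet-like, 20.0 in Paneth-like, 34.5 in enteroendocrine-like and 19.4 in tuft-like cells. Its progenitor-like level was 4.05 times the enterocyte-like one (3.43 to 4.79). The endoderm pioneer factor Foxa2 had 3.45 in enterocyte-like cells and 17.9 to 28.0 in the other classes.

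A few peaks went the other way. The Hoxc10 peak (chr15:102966301-102967200), over the start of a posterior Hox gene, held 79.9 in enterocyte-like, 23.1 in progenitor-like, 63.6 in goblet-like, 27.2 in Paneth-like, 50.0 in enteroendocrine-like and 55.2 in tuft-like cells. Enterocyte-like cells were the highest class, and progenitor-like cells had 0.289 times their level (0.260 to 0.321). Nkx2-5, a cardiac factor, had the one enterocyte-restricted compact-interval peak, 831 bases from its start. It held 11.0 in enterocyte-like, 2.37 in progenitor-like, 4.63 in goblet-like, 1.60 in Paneth-like, 1.19 in enteroendocrine-like and 1.49 in tuft-like cells. No UMI of Hoxc10 or Nkx2-5 was found in any of the 6 classes, which allows up to 0.866 UMIs per 1000000 nuclear-encoded UMIs in enterocyte-like cells.

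The 33 restricted peaks were spread over all classes. By highest class, 8 were enterocyte-restricted (2.54% of member peaks, against 3.25% of all promoter peaks) and 6 progenitor-restricted (1.90%, against 0.602%). Goblet-like cells had 4 (1.27%, against 0.638%) and Paneth-like cells 5 (1.59%, against 0.751%). Enteroendocrine-like cells had 4 (1.27%, against 2.15%) and tuft-like cells 6 (1.90%, against 0.737%). In the same order the compact-interval peaks accounted for 1, 5, 0, 1, 4 and 6 of them, so the other enterocyte-restricted, all goblet-restricted and all but 1 of the Paneth-restricted peaks lay in the long intervals of Foxp1, Sox5, Sox6 and Sox13.

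Genes of Hox paralogue group 4 had progenitor-restricted peaks in all 4 clusters. A Hoxa4 peak 496 bases from the start (chr6:52190502-52191256) held 21.5 in progenitor-like cells, against 2.96 in enterocyte-like, 6.01 in goblet-like, 10.8 in Paneth-like, 10.7 in enteroendocrine-like and 5.97 in tuft-like cells. It was 1.99 times the next class (1.35 to 3.05), whereas a second Hoxa4 peak, over the start, was shared at 11.4 to 25.4. Hoxb4 had 11.1 in progenitor-like cells, 1.56 in enterocyte-like, 3.62 in goblet-like, 6.41 in Paneth-like and 5.95 in enteroendocrine-like cells and no fragment in tuft-like cells.

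Hoxc4 had 5.85 in progenitor-like cells and 0 to 2.80 elsewhere, with an interval of the ratio to the next class that included 1 (0.982 to 5.30). The Hoxd4 peaks lie near the start interval of Hoxd3 as well. One (chr2:74721607-74722331), which holds the Hoxd4 promoter printed above, had 10.9 in progenitor-like cells, 1.40 in enterocyte-like, 4.01 in goblet-like, 3.20 in Paneth-like, 2.98 in enteroendocrine-like and 4.47 in tuft-like cells. Its neighbour had 5.46 in progenitor-like and 2.10 in goblet-like cells, a ratio of 2.60 (1.82 to 3.77). Without the tuft class the Hoxa4 and Hoxb4 peaks no longer reached 3 times the median of the others, at log2 ratios of 1.36 and 1.21. RNA of these genes was sparse: over the 6 classes Hoxb4 had 49 UMIs, Hoxd4 3, Hoxa4 1 and Hoxc4 and Hoxd3 none.

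Along the clusters, accessibility did not follow gene order in one direction. By the mean level of each gene's highest peak, the Hoxa cluster ranged from 2.38 at Hoxa11 to 17.6 at Hoxa4. The Hoxb cluster ranged from 1.30 at Hoxb1 to 10.1 at Hoxb9, a gene toward the posterior end. The Hoxc cluster ranged from 1.70 at Hoxc11 to 49.8 at its neighbour Hoxc10, and the Hoxd cluster from 2.51 at Hoxd10 to 8.33 at its neighbour Hoxd9. Over all peaks, the lowest of the Hoxb cluster was the Hoxb5 peak at 0.512 given above, and the lowest of the Hoxd cluster was the other Hoxd10 peak, at 1.39. Hoxa2, Hoxb2, Hoxc8, Hoxc12, Hoxc13 and Hoxd12 had no peak within 1 kb. Hox promoters were thus low to moderate throughout, with Hoxc10 as the single peak above 20 fragments per 1000000 on average.

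**Figure D3:**
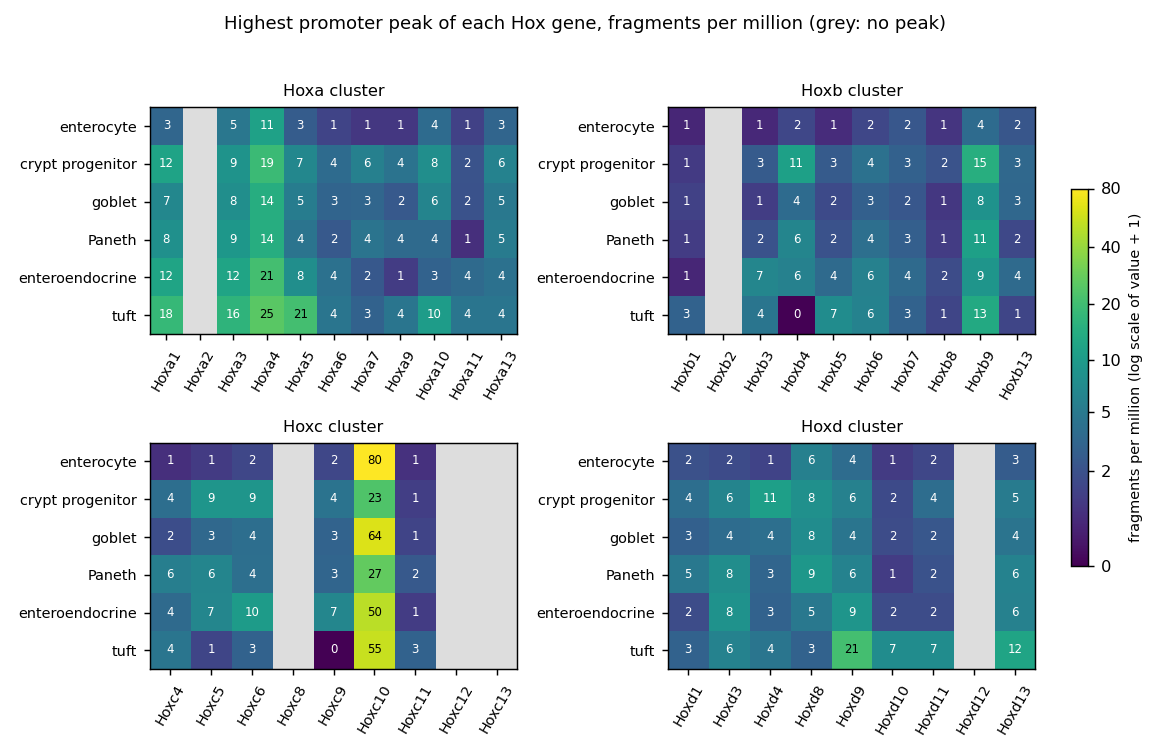
Level of the highest promoter peak of each Hox gene in each of 6 classes (fragments per 1000000, printed in the cells and coloured on a log scale of the value + 1), in the order of gene number, with genes that have no peak in grey. Hoxc10 reaches 79.9 in enterocyte-like cells, while Hoxa4 is the next highest gene by mean level (17.6).

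Tuft-like cells had 6 restricted peaks, all of compact intervals. The Pax6 peak (chr2:105675010-105675886), within the start interval of a gene needed for hormone-producing cells, held 55.2 in tuft-like and 39.3 in enteroendocrine-like cells, and 7.65 in enterocyte-like, 11.2 in progenitor-like, 9.97 in goblet-like and 13.2 in Paneth-like cells. The tuft-like and enteroendocrine-like levels could not be told apart (ratio 1.40, 0.913 to 2.13), and both lay above the other 4 classes. Otx1, a factor of the anterior brain, had 38.8 in tuft-like cells, 3.12 in enterocyte-like, 15.1 in progenitor-like, 8.63 in goblet-like, 12.8 in Paneth-like and 11.3 in enteroendocrine-like cells. Its tuft-like level was 2.57 times the next class (1.65 to 3.84).

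Sox1, a neural factor, had 14.9 in tuft-like cells from 10 fragments and 1.13 to 5.27 in the other classes. Hoxa5 and Hoxd9 each had 20.9 from 14 fragments, against 2.59 to 7.74 and 3.72 to 8.93 elsewhere. Lhx9 had 14.9, against 1.83 to 5.36. For these 4 peaks the tuft-like level was 2.34 to 2.83 times the next class, and each interval excluded 1. All restricted peaks were picked for the height of their highest class in these same counts. Their ratios to the next class therefore lean upward, and the intervals give no separate support. RNA of the 6 genes with tuft-restricted peaks was not detectable in tuft-like cells apart from 2 UMIs of Hoxa5. Otx1, Sox1, Hoxd9, Lhx9 and Pax6 each had none, which allows up to 15.5 UMIs per 1000000 in that class. Beside these values, the summed level of 12 lymphocyte markers was 341 UMIs per 1000000 in tuft-like cells and 12.1 to 44.4 in the other classes, and its part was not tested.

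The remaining restricted peaks of compact intervals were small. Enteroendocrine-like cells were highest at Foxb2 (9.53, from 16 fragments) and at Hoxb3, Dlx3 and Nkx1-1 (6.55 each, from 11 fragments). At each of these 4 the tuft-like level came next and the interval of the ratio included 1. Six4, a factor of muscle and sensory organs, had 8.81 in Paneth-like cells from 22 fragments, with an interval of the ratio to tuft-like cells of 0.501 to 5.89.

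**Figure D4:**
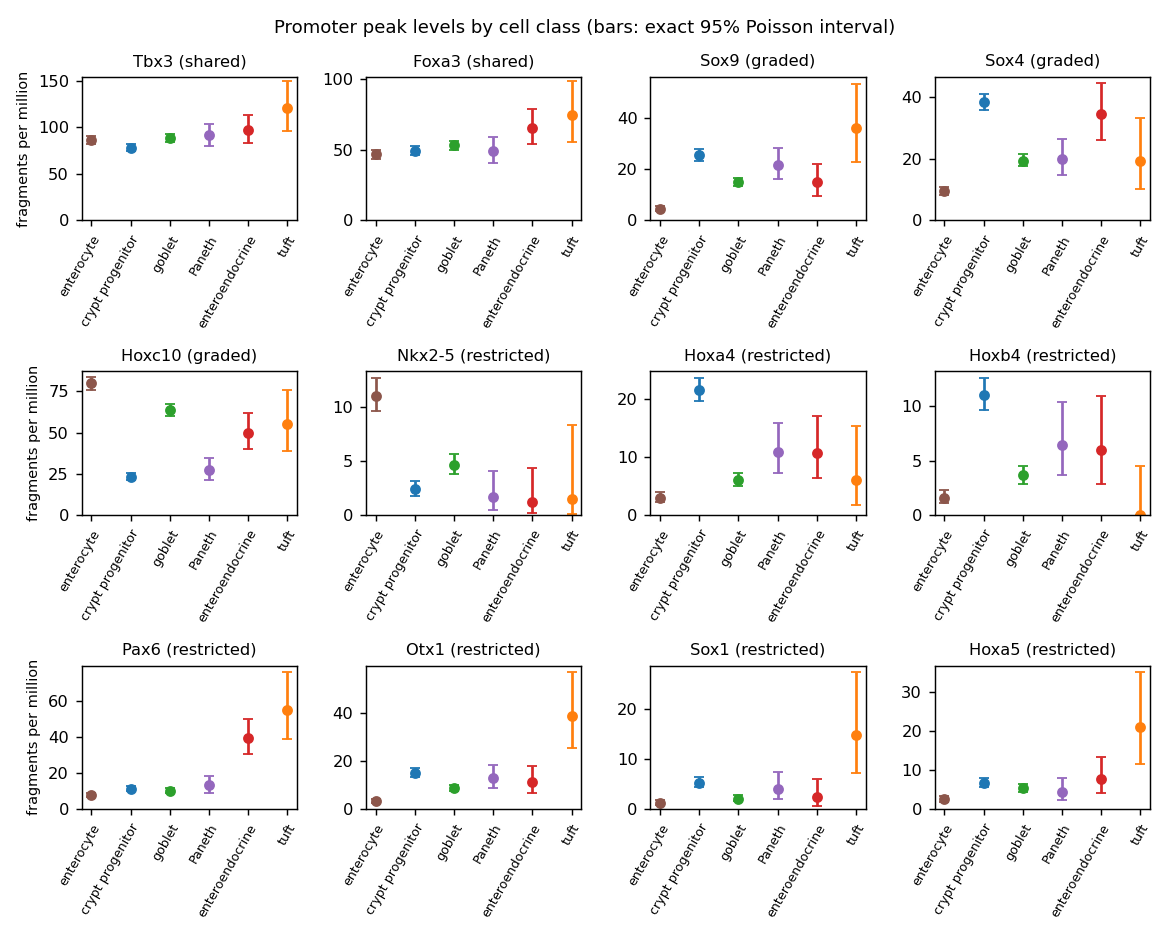
Fragments per 1000000 (y axis, from 0) in 6 cell classes for the highest promoter peak of 11 named genes and the progenitor-restricted Hoxa4 peak. Points are the class levels and bars the exact 95% Poisson intervals of the counts (a count of 0 has a bar up to 3 fragments). Sox9 is lowest in enterocyte-like cells at 4.53, Hoxc10 highest there at 79.9, and Pax6 reaches 39.3 and 55.2 in enteroendocrine-like and tuft-like cells.

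The long start intervals held restricted peaks of several classes within 1 gene. Sox5, a factor of cartilage and neurons, had a goblet-restricted peak at 8.44 fragments per 1000000, against 0.269 in enterocyte-like, 0.483 in progenitor-like, 1.60 in Paneth-like, 4.76 in enteroendocrine-like cells and no fragment in tuft-like cells. It had another at 10.7 in goblet-like and 4.58 in enterocyte-like cells, a ratio of 2.34 (1.82 to 3.04). A progenitor-restricted Sox5 peak had 7.10, against 0.862 to 3.20 elsewhere, and an enterocyte-restricted one 5.55, against 0 to 3.005 elsewhere. Without the tuft class the latter had a log2 ratio of 1.54, under the 3-fold limit. Sox13 had an enterocyte-restricted peak (7.33, against 3.43 in goblet-like and 0 to 1.20 elsewhere) and a goblet-restricted one (5.34, against 0.801 to 1.51). Another Sox13 peak was Paneth-restricted, at 30.4 against 7.74 to 14.9.

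Sox6, which acts in muscle and blood cells, had 2 named enterocyte-restricted peaks, at 8.67 against 0.595 to 2.98 and at 6.84 against 0 to 2.80. Foxp1, a forkhead repressor, had peaks restricted to Paneth-like cells at 9.21, 22.4 and 12.8, the first 2 of which were nearly as high in goblet-like cells (8.59 and 19.8). Without the tuft class these 3 had log2 ratios of 1.59, 1.24 and 1.53. Foxp1 also had an enterocyte-restricted peak (5.06, against 0 to 2.34) and a goblet-restricted one (6.96, against 6.81 in Paneth-like and 1.35 to 2.32 elsewhere). Such peaks lie between alternative starts, and the files do not say whether they act as promoters.

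Peaks of 1 gene could differ in pattern: 43 genes had more than 1 peak, and in 29 of them the patterns were not all the same. The share over other genes with several peaks was not counted, so this is not shown to be particular to the members. Foxa3 was the clearest case among compact intervals. The peak at 46.7 to 74.6 described above was shared, while the one over its start (chr7:19023119-19023747) had 7.17 in enterocyte-like, 24.5 in progenitor-like, 28.7 in goblet-like, 30.4 in Paneth-like, 27.4 in enteroendocrine-like and 19.4 in tuft-like cells. At the second the goblet-like level was 4.0 times the enterocyte-like one (3.31 to 4.86), and at the first it was 1.14 times (1.04 to 1.25). The range of mean levels over a gene's peaks was 0.971 to 33.5 for Foxn3, 0.429 to 23.0 for Foxp1, 0.752 to 20.6 for Sox13, 4.08 to 22.8 for Pax6 and 0.399 to 11.1 for Sox6.

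RNA of most members, as of most genes, was not detected. A gene was counted as detected in a class with at least 10 UMIs (unique molecular identifiers, each 1 captured RNA molecule) and 5 per 1000000 nuclear-encoded UMIs of that class. Of 166 genes, 33 (19.9%) were detected in at least 1 class, against 22.6% of all 55401 genes, and 88 had no UMI in the 6 classes. The 55401 genes are not limited to protein-coding ones, for which the share was not counted. By the pattern of the gene's highest peak, 17 of 27 genes with a shared peak were detected, 9 of 57 with a graded, 3 of 13 with a restricted, 2 of 29 with a low and 2 of 40 with no peak. The same shares were not counted over other genes, so they do not show whether the members differ from genes in general. By family, 17 of 44 Fox, 5 of 19 Sox and 4 of 39 Hox genes were detected. RNA levels compare 1 gene between classes, and free RNA in the droplets was not removed.

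**Figure D5:**
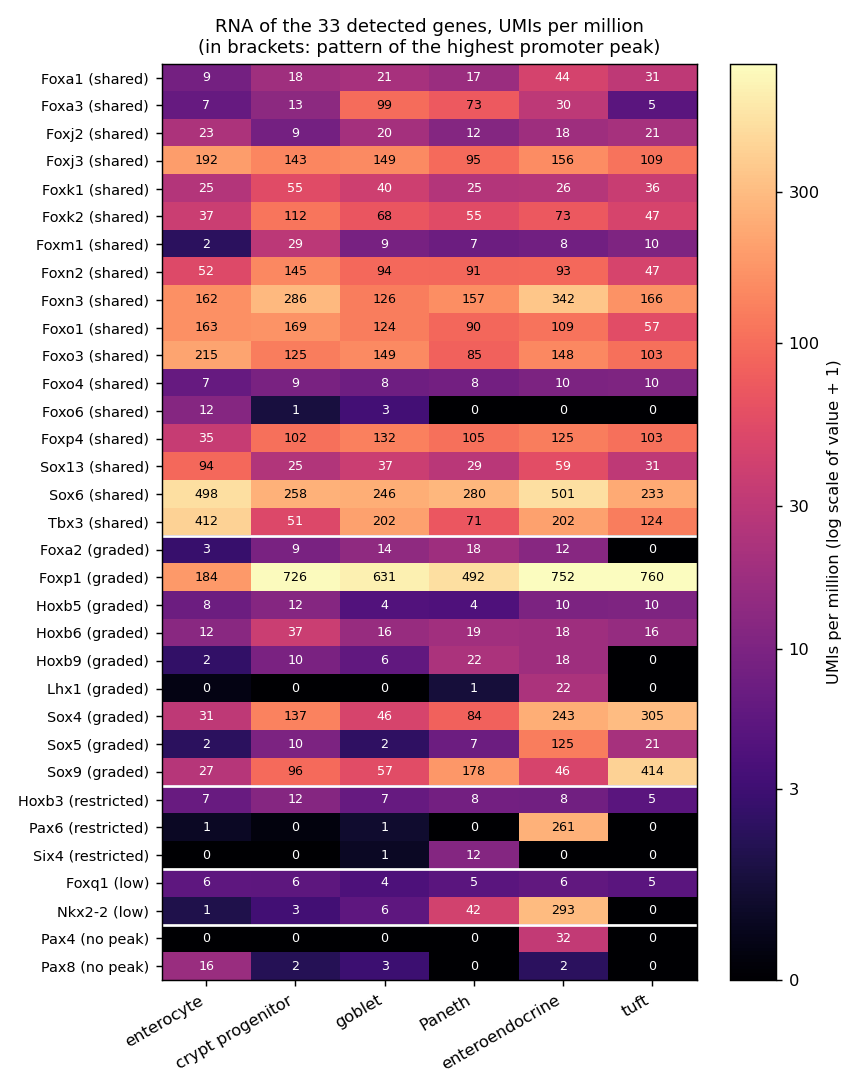
RNA of the 33 detected member genes in 6 classes (UMIs per 1000000 nuclear-encoded UMIs of the class, printed in the cells and coloured on a log scale of the value + 1), ordered by the pattern of the gene's highest promoter peak. Foxp1 is widespread at 184 to 760, while Pax6 (261) and Nkx2-2 (293) are high in enteroendocrine-like cells.

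RNA levels varied between classes for genes with a promoter peak open to a like degree in all of them and for genes without one. Tbx3, with near-equal accessibility, had 412 UMIs per 1000000 in enterocyte-like (95% interval 391 to 434), 51.4 in progenitor-like (45.5 to 57.9), 202 in goblet-like, 70.9 in Paneth-like, 202 in enteroendocrine-like and 124 in tuft-like cells. Its RNA was thus highest where its promoter was among the lower ones. Foxa3 RNA was 6.64 in enterocyte-like, 13.3 in progenitor-like, 99.3 in goblet-like, 73.0 in Paneth-like, 30.3 in enteroendocrine-like and 5.17 in tuft-like cells (1 UMI). Sox9 RNA was 26.9, 95.8, 56.5, 178, 46.5 and 414 in the same order of classes, lowest in enterocyte-like and highest in tuft-like cells, as its peak was.

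RNA of forkhead genes with shared peaks varied between classes. Foxo3 RNA ran from 84.6 in Paneth-like to 215 in enterocyte-like cells and Foxj3 from 95.2 in Paneth-like to 192 in enterocyte-like cells. Foxn2 ran from 46.5 in tuft-like to 145 in progenitor-like cells. Foxm1, which drives mitotic genes, had 29.3 in progenitor-like and 2.02 in enterocyte-like cells, beside a shared peak at 33.1 and 22.7. Foxo6 had 11.8 in enterocyte-like cells and no UMI in Paneth-like, enteroendocrine-like or tuft-like cells, with a near-equal promoter. The absence of UMIs allows up to 3.17 in Paneth-like, 6.06 in enteroendocrine-like and 15.5 in tuft-like cells. A Foxo6 level in tuft-like cells as high as in enterocyte-like cells is therefore not excluded.

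Of the other genes with the most RNA, Sox6 had 498 in enterocyte-like, 501 in enteroendocrine-like and 233 to 280 in the other classes. Foxp1 had 184 in enterocyte-like cells and 492 to 760 in the others. Foxn3 had 126 in goblet-like to 342 in enteroendocrine-like cells. Sox4 had 30.6 in enterocyte-like, 137 in progenitor-like, 243 in enteroendocrine-like and 305 in tuft-like cells. Foxp4 ran from 34.9 in enterocyte-like to 132 in goblet-like cells, and Foxk2 from 36.7 in enterocyte-like to 112 in progenitor-like cells. Foxo1, a target of insulin signalling, had 56.9 in tuft-like to 169 in progenitor-like cells.

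The hormone-cell factors had the most class-specific RNA. Pax6 had 261 UMIs per 1000000 in enteroendocrine-like cells (218 to 310, 129 UMIs), 0 to 0.774 in the other classes and none in tuft-like cells, although its peak was as open there. Nkx2-2 had 293 in enteroendocrine-like cells (247 to 345), 42.3 in Paneth-like and 1.44 to 5.81 in enterocyte-like, progenitor-like and goblet-like cells. Tuft-like cells had no Nkx2-2 UMI, which allows up to 15.5. Both Nkx2-2 peaks were low, at 2.98 and 4.76 in enteroendocrine-like cells, and 0.323 to 1.05 in enterocyte-like, progenitor-like and goblet-like cells. At the first, tuft-like cells had 6.92 times the enterocyte-like level (0.716 to 34.7), against 6.91 in enteroendocrine-like cells (1.78 to 23.9). At the second, Paneth-like cells had 4.95 times that level (1.03 to 20.9), against 14.7 in enteroendocrine-like cells (4.48 to 51.5). The peaks are thus not shown to be specific to enteroendocrine-like cells. Sox5 had 125 in enteroendocrine-like cells and 2.02 to 20.7 elsewhere, and Lhx1 22.2 and 0 to 1.06.

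A pair of other detected genes had no peak, and 1 more had a low one. Pax4, which acts in endocrine precursors, had 32.3 UMIs per 1000000 in enteroendocrine-like cells (18.5 to 52.5) and no UMI elsewhere. Pax8, a thyroid and kidney factor, had 16.5 in enterocyte-like cells (12.5 to 21.3) and 0 to 2.90 elsewhere. Foxq1 had 4.06 to 6.06 in all classes beside a peak of at most 1.60. The other 38 genes without a peak were not detected, among them Foxb1, Foxd4, Foxh1, Foxi1, Foxi2, Foxl1, Foxn1, Foxp3, Foxr1, Foxr2, Foxs1, Hoxa2, Hoxb2, Hoxc8, Hoxc12, Hoxc13, Hoxd12, Irx1, Irx5, Irx6, Lhx8, Nkx2-1, Nkx2-3, Nkx2-9, Nkx3-2, Nkx6-3, Pax2, Pax5, Pax7, Six2, Six6, Sox10, Sox15, Tbx5, Tbx10, Tbx19 and Tbx22.

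Hox RNA came almost wholly from the Hoxb cluster. Its 10 genes had 819 UMIs over the 6 classes, against 55 for 11 Hoxa, 5 for 9 Hoxc and 3 for 9 Hoxd genes. Hoxb6 had 37.1 UMIs per 1000000 in progenitor-like cells (32.1 to 42.7), 12.4 in enterocyte-like, 16.1 in goblet-like, 19.0 in Paneth-like, 18.2 in enteroendocrine-like and 15.5 in tuft-like cells. Hoxb9 had 22.2 in Paneth-like, 18.2 in enteroendocrine-like, 9.71 in progenitor-like, 6.0 in goblet-like and 2.31 in enterocyte-like cells. Hoxb3 and Hoxb5 each had 11.8 in progenitor-like cells, and 6.93 and 7.51 in enterocyte-like cells. The start intervals of Hoxb3 and Hoxb6 span 20444 and 6696 bases among their neighbours, so reads of overlapping transcripts may be counted for the wrong Hoxb gene. The cluster's promoter peaks were no higher than those of the others, with a median mean level of 2.81, against 5.32 for Hoxa, 3.36 for Hoxc and 3.05 for Hoxd.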

How the data were processed

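The deposited matrix holds raw counts, per the file headers, of UMIs for 55401 genes and of ATAC signal in 146191 peaks, for 12363 barcodes shared by both libraries (71697164 UMIs and 197564789 peak counts). Cell Ranger ARC 2.0.2 and build mm10 are named in the submitters' processing notes; how peaks were called and merged is not given in the sources used here. Since 87.6% of the deposited peak counts above 0 were even, each was halved and rounded up to fragments.

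Barcodes with at least 500 UMIs, 300 genes and 1000 peak counts were kept (9872; medians 5591 UMIs, 1547 nuclear-encoded UMIs and 12884.5 peak counts). Scrublet (scanpy 1.11.5) marked 0 cells and so has not worked; doublets remain. RNA was clustered without member and mtDNA genes (1500 variable genes, 30 components, 15 neighbours, Leiden resolution 1), and clusters were named from 12 marker lists, with a scoring rule set once clusters had been seen. Fragments and UMIs were summed per class. Intervals are exact Poisson or exact conditional, at 95%. The code was tested on simulated data.

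Named peaks were up to 6 restricted peaks a class by ratio, the 6 highest shared, the 4 lowest low, the highest of each family and the extremes of each Hox cluster. For RNA they were detected genes with low or no peaks and up to 10 with the most RNA among shared and restricted. Up to 6 genes with several patterns and up to 4 genes of 2 other lists were added. Sox9, Sox4, Foxa2, Hoxb6, Foxm1, the compact Hoxb5 and Pax1 values, and RNA of genes in the graded pattern were chosen after their values were seen. Members and lists were chosen with earlier results of these data known. GRCm38.p6 is the RefSeq name of the mm10 assembly. Some member genes are not reported by name here.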

Additional observations from a re-analysis of the deposited data

How the results depend on the processing

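No paired analysis was possible because each group has 1 library from 1 animal, and no setting changed the direction of a named ratio. With a low threshold of 2 fragments per 1000000, 27 member peaks were low and 65 shared; with 10, 217 were low, 24 shared, 60 graded and 14 restricted. With a fold threshold of 2, 27 were shared and 63 restricted, and with 4, 12 were restricted. These counts move by construction with the threshold. With start intervals of at most 30 kb, an alternative chosen after seeing the data, 48 of 173 were low, 79 graded and 17 restricted, and 111, 67 and 71 were higher in progenitor-like, goblet-like and Paneth-like than in enterocyte-like cells. The goblet-like count of 114 peaks higher than in enterocyte-like cells fell to 71 at Leiden resolution 2 and to 55 with classes from ATAC clusters; the cause was not tested. Leaving out the tuft class or the goblet-like cluster of the highest doublet scores (both chosen after seeing the data), cells over 80% mtDNA-encoded UMIs or the highest 8% of doublet scores kept each pattern count within 1.5 times. Over all settings, 511 values of named restricted peaks moved by less than their counting interval and 52 by more. Fragments limit the tuft-like, enteroendocrine-like and Paneth-like levels most, and the deposited counts in place of fragments gave 134 peaks higher in tuft-like cells, against 99.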

Other observations

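The clusters that met no naming rule also covered a range of member accessibility. One of 569 cells led by Slc28a2 and Nt5e held 1111 fragments per 1000000 in the compact-interval member peaks, and one of 1483 cells led by H2-Bl held 1264. Those led by Gsdmc2 (970 cells) and by Slc14a1 (287 cells) held 1437 and 1525.

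Factors of intestinal lineages from a second list, outside the rule, included promoters with large class ratios. Of 40 such genes 39 had a peak within 1 kb, and of their 192 peaks 55 were low, 37 shared, 79 graded and 21 restricted, where all promoter peaks had 31.5% low, 33.5% shared, 26.9% graded and 8.13% restricted. RNA of 37 of the genes was detected, against 22.6% of all genes. A Neurod1 peak, at a gene needed for enteroendocrine cells, had 37.5 fragments per 1000000 in enteroendocrine-like cells and 0 to 2.80 in the other classes. An Insm1 peak had 39.3 there and 2.05 to 8.95 elsewhere. In tuft-like cells a Gfi1b peak had 29.8, against 2.38 to 4.78 elsewhere. An Esrrg peak had 11.9 there, against 0.108 to 2.66. Neurod1, Insm1 and Gfi1b were also in the marker lists that named these classes, so their high levels there are no separate result. The peaks named here were picked for their large ratios.

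Genes of Polycomb and Trithorax complexes, which keep developmental promoters off or on, gave 71 promoter peaks for 33 genes: 12 low, 37 shared, 19 graded and 3 restricted, beside the same shares over all promoter peaks, with RNA of 29 detected. The restricted ones, named after their values were seen, were a Pcgf5 peak at 31.1 in enterocyte-like cells, against 1.84 to 10.4 elsewhere, a Phc1 peak at 17.9 in tuft-like and 12.6 in progenitor-like cells, against 0.862 in enterocyte-like cells, and a Kdm2b peak at 19.7 in progenitor-like cells, against 2.98 to 13.2 elsewhere.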
